A study of Mus musculus with 96 samples.

Results

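Single cells of C10, a mouse lung line labelled as alveolar type II epithelial, were compared between RO-3306 treatment and no treatment at a like level of a mitotic transcript score. The cells were chosen by a score, the summed CPM (the counts of a gene scaled to a library total of 1000000) of 10 genes that peak late in the cell cycle: Ccnb1, Ccnb2, Cdc20, Plk1, Aurka, Cenpf, Top2a, Tpx2, Hmmr and Ube2c. Of 96 libraries, each from 1 cell, 66 had at least 50000 counts and 1000 genes with a count. The 33 of these with a score at or above the median of 1916 CPM, taken over both groups together, are described here as score-high cells; they are 9 of 29 kept control cells and 24 of 37 kept RO-3306 cells. The other 33 kept cells, 20 control and 13 RO-3306, are called score-low.

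Control cells are labelled as having no treatment, and no vehicle is named for them. Treated cells had 10 nM RO-3306, marketed as a CDK1 inhibitor, for 36 h after seeding on dishes, and whether the kinase was inhibited was not measured in these files. All cells grew in RPMI with fetal bovine serum, were dispensed singly with a CellenONE sorter and gave SMART-seq v4 cDNA read as single 150-nt reads, within a study of the nanoSPLITS method, which divides a cell's lysate for RNA and protein. The labels name no culture, passage or clone, so each treatment is 1 sample. For that reason no test was made, no p-value or standard error is given, and the spread shown is that between cells, which are not replicates of a treatment.

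CDK1 bound to cyclin A or cyclin B drives entry into mitosis. Its activity is held back by the kinases WEE1 and PKMYT1, released by CDC25 phosphatases, and ended when the anaphase-promoting complex (APC/C) marks the mitotic cyclins for the proteasome. The transcripts of most mitotic genes build up in G2, under the FOXM1, MYBL2 and DREAM complexes, so a score built on them takes in G2 cells as well as cells in division. At micromolar doses, RO-3306 is widely used to hold cells at the border of G2 and mitosis; the labelled nanomolar dose is well below those.

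The share of kept cells that were score-high was 31.03% in control (exact Clopper-Pearson 95% interval 15.3 to 50.8%, 9 of 29) and 64.9% in RO-3306 (47.5 to 79.8%, 24 of 37). In set B (1 of 4 lettered sets, described below) the order was the other way, with 6 score-high among 8 kept in control and 6 among 10 in RO-3306. These shares follow from the rule, and their intervals cover counting error only. Scores of the score-high cells ran from 1993 through a median of 3214 to 5510 CPM in control and from 1963 through 3307 to 6585 CPM in RO-3306, so the groups covered nearly the same range. The cell just inside the threshold was RO-3306 D2 at 1963 CPM, and the cell just outside was RO-3306 C5 at 1869 CPM.

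**Figure D1:**
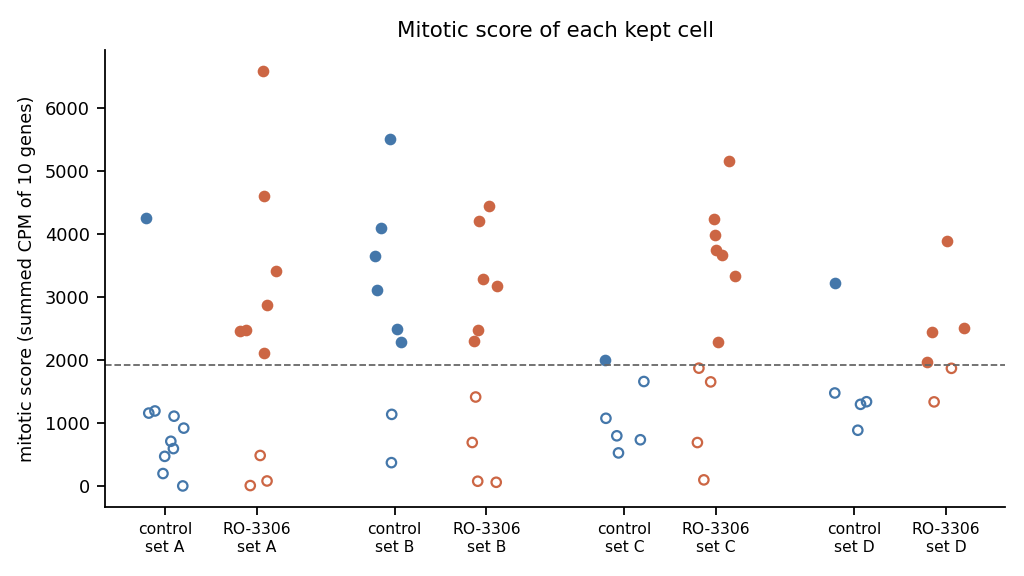
Mitotic score (vertical axis, summed CPM of 10 genes) of each of the 66 kept cells by group and by the letter in its title; the line is the median of 1916 CPM that divides score-high from score-low cells. Of the 9 control cells above it, 6 carry the letter B, while the 24 RO-3306 cells above it come from all 4 letters.

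Each title has a letter, A, B, C or D, whose meaning the labels do not give. The score-high control cells were A1, B2, B4, B6, B8, B10, B12, C1 and D8, that is 6 of set B and 1 of each other set; the RO-3306 cells were 7 of set A, 6 of B, 7 of C and 4 of D. Set B was therefore the 1 set in which groups of more than 1 cell could be compared, at 6 cells against 6, and its values stand beside the main ones. They share their cells with the main comparison and are no separate sample. Total counts ran from 961143 to 6457215 in control (25875715 in sum, 24.95% of it from cell B4) and from 475882 to 4998205 in RO-3306 (61635670 in sum). With each cell thinned to 639000 counts, the median number of genes with a count was 4584 in control (3345 to 9060, 9 cells) and 5969 in RO-3306 (1947 to 7987, 23 cells, since 1 was too shallow). With cells chosen by a mean log2 score these medians were 5759 and 6077, and in the 22 cells of highest score 5516.5 and 5851. The mitochondrially encoded share of counts had a median of 3.54% in control and 4.27% in RO-3306.

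Some libraries stand apart. RO-3306 A9 and A10 were more alike than any other of the 528 pairs of score-high cells: no gene stood above 100 CPM in 1 of them and at 0 in the other, where the next pair had 132 such genes and the median pair 674.5. Their correlation at equal depth was 0.866, where the next highest was 0.644. The chi-square of their counts was 80.8 per degree of freedom, against a median of 196.5 over all pairs. Sampling noise alone gives about 1, but PCR copies are part of these counts. The value therefore cannot tell whether the 2 libraries hold separate cells, which was not tested. RO-3306 C11 held only 1961 genes and had a median correlation of 0.376 with the other cells, where the median over all pairs was 0.509. Control B4 was the deepest library and had the most genes, 10275. The number of genes at least 2-fold higher and lower in RO-3306, given below as 1414 and 2008, was 1414 and 2030 without A9, 1417 and 2047 without A10, 1401 and 1989 without C11, and 1791 and 1896 without control B4.

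The labelled cell type was set against defining markers. Of 10 alveolar type II markers, 6 had no count in any score-high cell, among them the surfactant genes Sftpa1, Sftpb, Sftpc and Sftpd. Krt18 and Krt19 were also at 0, and no epithelial, endothelial or lymphoid marker reached a mean of 5 CPM. All 6 mesenchymal markers did, Vim at 2563 CPM in control against 1294 CPM in RO-3306. The cells are therefore called C10 cells here. Zeros need care in these files, because reads that fall on more than 1 gene were left out: B2m, at 0 in every score-high cell, lies wholly under another gene's span, as does the alveolar type I marker Aqp5, while the surfactant genes and keratins named here lie under none.

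Sequences upstream of genes that carry the comparison are shown first, as the 250 bases before the RefSeq start site (GRCm38.p6), in lower case with matches to the motif named in the same paragraph in capitals. The cell cycle homology region (CHR), TTTGAA on either strand (TTCAAA on the other), is the element through which DREAM and MYBL2 act on many mitotic promoters. It was found in 4 of the 9 score genes with a promoter entry, against 15.99% of all 32851 promoters. These 4 are Ube2c at chr2:164769679-164769928 (plus strand), Ccnb2 at chr9:70421555-70421804 (minus strand), Cdc20 at chr4:118437344-118437593 (minus strand) and Top2a at chr11:99024190-99024439 (minus strand). Among them Ube2c and Ccnb2 had higher CPM in RO-3306, and Cdc20 and Top2a had less (values below). These values chose the cells, so no link between the match and a direction can be read from them.
Ube2c: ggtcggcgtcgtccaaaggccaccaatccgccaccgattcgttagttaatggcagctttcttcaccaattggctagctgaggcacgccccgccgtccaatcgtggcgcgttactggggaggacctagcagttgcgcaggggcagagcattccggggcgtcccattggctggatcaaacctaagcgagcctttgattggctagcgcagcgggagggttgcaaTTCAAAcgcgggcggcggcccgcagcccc
Ccnb2: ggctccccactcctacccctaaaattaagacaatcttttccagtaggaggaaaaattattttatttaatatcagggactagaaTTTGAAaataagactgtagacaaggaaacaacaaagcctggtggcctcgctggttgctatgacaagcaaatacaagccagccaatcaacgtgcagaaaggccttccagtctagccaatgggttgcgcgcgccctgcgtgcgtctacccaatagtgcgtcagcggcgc
Cdc20: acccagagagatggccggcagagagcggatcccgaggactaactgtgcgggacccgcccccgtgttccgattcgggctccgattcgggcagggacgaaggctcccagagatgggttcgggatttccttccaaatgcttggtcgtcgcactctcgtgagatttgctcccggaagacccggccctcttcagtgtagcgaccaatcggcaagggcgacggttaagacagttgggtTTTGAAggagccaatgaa
Top2a: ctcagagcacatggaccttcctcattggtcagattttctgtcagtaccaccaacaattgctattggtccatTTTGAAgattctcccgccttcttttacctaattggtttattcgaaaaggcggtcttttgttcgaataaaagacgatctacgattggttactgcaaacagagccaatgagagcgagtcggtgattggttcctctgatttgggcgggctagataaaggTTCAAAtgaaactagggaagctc

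The core of the xenobiotic response element (XRE), GCGTG on either strand (CACGC on the other), is bound by the aryl hydrocarbon receptor with its partner ARNT. It was found in 5 of the 8 genes with a promoter entry on a list of that receptor, ARNT and their targets, Arnt among them, against 28.2% of all promoters. It was also in 5 of the 9 score genes. On lists described below, it was in 13 of 17 NRF2, glutathione and thioredoxin genes and in 6 of 22 glutathione S-transferases. For both motifs, a list gene counts once however many promoter entries it has, while the share of all promoters is of entries. Cyp1b1, the receptor's target that was lower in RO-3306, at chr17:79715062-79715311 (minus strand), and Tiparp, a target that was higher, at chr3:65528197-65528446 (plus strand), each hold 1 match. Matches are a description of these letters and of nothing bound to them.
Cyp1b1: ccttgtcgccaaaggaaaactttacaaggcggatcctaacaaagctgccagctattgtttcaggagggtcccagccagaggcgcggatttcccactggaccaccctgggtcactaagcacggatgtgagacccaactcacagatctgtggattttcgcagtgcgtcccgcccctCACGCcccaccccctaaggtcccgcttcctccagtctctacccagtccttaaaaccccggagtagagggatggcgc
Tiparp: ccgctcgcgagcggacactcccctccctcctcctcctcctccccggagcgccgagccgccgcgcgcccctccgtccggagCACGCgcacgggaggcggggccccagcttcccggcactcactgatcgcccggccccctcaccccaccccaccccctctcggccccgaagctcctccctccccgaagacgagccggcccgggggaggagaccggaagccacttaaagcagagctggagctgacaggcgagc

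The alpha-class glutathione S-transferases Gsta1, Gm3776 and Gsta2 are shown because they had no count in any score-high control cell and a count in all 24 score-high RO-3306 cells. Their upstream regions are at chr9:78230419-78230668 (plus strand), chr9:78256879-78257128 (plus strand) and chr9:78347146-78347395 (minus strand). Those of Gsta1 and Gm3776 were identical at 236 of 237 aligned bases, while Gsta1 and Gsta2 shared 136 of 247. Gsta2 holds 1 XRE core, and the other 2 hold none in this window.
Gsta1: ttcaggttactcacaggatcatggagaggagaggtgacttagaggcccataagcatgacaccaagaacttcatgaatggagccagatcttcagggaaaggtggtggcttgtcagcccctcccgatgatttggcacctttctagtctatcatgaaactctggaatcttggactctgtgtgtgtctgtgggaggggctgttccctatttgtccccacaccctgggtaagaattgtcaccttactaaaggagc
Gm3776: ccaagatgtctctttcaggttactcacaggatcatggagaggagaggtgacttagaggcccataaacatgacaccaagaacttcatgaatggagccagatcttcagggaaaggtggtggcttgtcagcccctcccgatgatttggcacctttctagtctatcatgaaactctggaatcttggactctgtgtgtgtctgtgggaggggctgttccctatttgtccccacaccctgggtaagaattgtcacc
Gsta2: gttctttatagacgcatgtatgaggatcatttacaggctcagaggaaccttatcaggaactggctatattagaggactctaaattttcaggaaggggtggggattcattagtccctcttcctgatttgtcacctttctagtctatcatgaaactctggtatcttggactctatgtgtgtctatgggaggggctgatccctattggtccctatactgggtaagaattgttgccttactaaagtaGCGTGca

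Across genes, counts were summed over the cells of each group and the ratio was taken as log2 of the RO-3306 value over that of control, after 1 CPM was added to each, so that ratios of low genes are understated. A gene was called higher or lower where this ratio was at least 2-fold and the ratio of the mean per-cell CPM was too. Of 9216 genes that averaged 5 CPM or more, score genes aside, 1414 were called higher (15.3%) and 2008 lower (21.8%), and the median log2 ratio was -0.20 (quartiles -1.14 and 0.62). Of the calls, 41.3% were higher; with TMM scaling, which lifts every ratio by about the same step, the counts were 1765 and 1658 (51.6% higher, median 0.03), and with DESeq2 size factors 1803 and 1631 (52.5%, median 0.05). The sign of ratios just below 0 therefore depends on the scaling. Of the 1414 genes called higher, 1249 had the same sign in set B and 900 in the score-low cells; of the 2008 called lower, 1869 and 1336 did.

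A stricter view asks which genes did not overlap between groups at all. Every RO-3306 cell stood above every control cell for 8 genes (0.0868% of those tested): Ftl1, Fth1, Gsta1, Gm3776, Gsta2, Prr13, Grik3 and F630206G17Rik. Every RO-3306 cell stood below every control cell for 1 gene (0.0109%), Cdkn2c. These 9 are named because of their values. The counts of Grik3 and F630206G17Rik were fractional in every cell that had any, that is, all rested in part on reads placed at several sites, and their log2 ratios of 2.09 and 1.88 stand beside 2.04 for Ftl1 and 1.98 for Fth1, whose counts were fractional in 97.0% and 69.7% of cells. A read placed at several sites cannot be assigned to one of them.

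Length moved with the ratio over all genes. Ordered by the longest annotated mRNA of each gene (97.1% had one), and cut into 10 bins of equal size, the 896 genes with the shortest mRNAs, up to 1338 nt, had a median log2 ratio of 0.36, and the 895 with the longest, from 6759 nt, had -1.09, with the median of each bin lower than that of the bin before. Genes called higher had a median length of 2866 nt and genes called lower 4356 nt, against 3293 nt over all tested. The part of length in the gene results below was not tested, and the median length is given beside some of the lists.

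Below, 3 CPM values given together are those of the lowest, median and highest cell, and a pair of CPM values is the summed level in control and then in RO-3306.

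Within the score, the mix of genes differed, while the scores of the groups covered a like range. These values chose the cells and are a description. Ube2c, the APC/C's ubiquitin-conjugating enzyme, was at 1149 CPM in control against 1622 CPM in RO-3306, which was 30.6% and 49.2% of the score. Ccnb2, a mitotic cyclin, was at 330 CPM and 506 CPM. Lower in RO-3306 were Tpx2, which activates Aurora A on the spindle (430 CPM and 92.3 CPM), the kinase Plk1 (203 CPM and 56.5 CPM), Top2a, the topoisomerase that untangles sister chromatids (248 CPM and 77.1 CPM), and Hmmr, a microtubule-bound spindle protein (251 CPM and 107 CPM). Top2a had a log2 ratio of -1.67, or -0.68 without control B4.

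Ccnb1, the main partner of CDK1, was at 486 CPM in control against 301 CPM in RO-3306, and Cdc20, the APC/C activator, at 277 CPM and 172 CPM. Aurka, which encodes Aurora A, was at 322 CPM in both groups. Cenpf changed sign, from -0.54 to 0.28, when control B4 was left out. In the score-low cells, chosen for low values of these genes, Tpx2 was at 54.6 CPM in control against 61.3 CPM in RO-3306, and Ube2c at 323 CPM and 504 CPM.

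**Figure D2:**
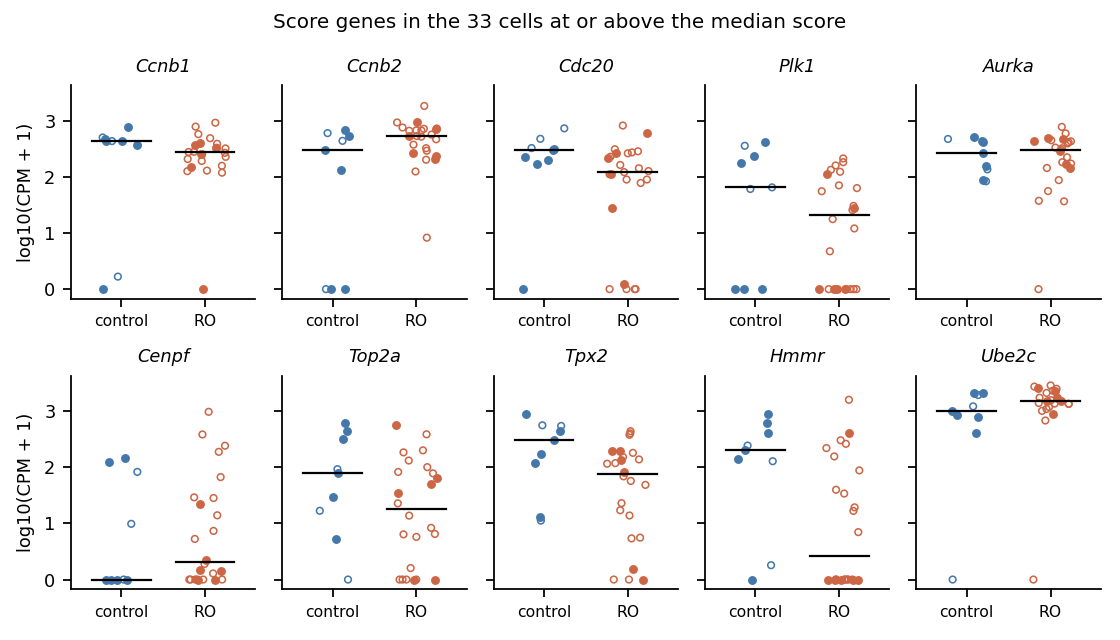
Level of each score gene (vertical axis, log10 of CPM + 1) in the 9 control (blue) and 24 RO-3306 (orange) score-high cells; filled points are set B and lines are medians. Ube2c medians are close together near the top of the scale, while Tpx2 had a count in 21 and Hmmr in 12 of the 24 RO-3306 cells.

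The rest of the mitotic machinery was not used by the rule, though its genes are expressed with the score genes. Over 106 other mitotic genes in lists by role, 103 were measured. Of these, 3 were called higher and 36 lower, where 15.3% and 21.8% of all tested genes were. A ratio above 0 was found for 22 and below 0 for 81, and the median log2 ratio was -0.96 against -0.20 over all tested genes. Their median mRNA length was 3755 nt. Summed per cell, these genes gave 9307, 18062 and 22993 CPM in control (lowest, median, highest) and 8527, 12996 and 18916 CPM in RO-3306. The RO-3306 cell was the higher of the pair in 13.9% of the 216 pairs of 1 RO-3306 and 1 control cell, so most RO-3306 cells lay below most control cells, with overlap at both ends. Set B alone ran from 15582 to 20609 CPM in control and from 11602 to 16908 CPM in RO-3306. In the score-low cells the medians were 8828 CPM in control against 10027 CPM in RO-3306, with the RO-3306 cell higher in 39.6% of pairs. The median log2 ratio was -1.05 in set B and -0.15 in score-low cells.

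Among CDK1 and the genes that control it, 2 of 19 were called higher (10.5%) and 3 lower (15.8%), against 15.3% and 21.8% of all tested genes. The list median was -0.49, or 0.01 without control B4. Cdk1 itself was at 6.04, 844 and 1764 CPM in control cells and 0, 527 and 1087 CPM in RO-3306 cells, with a log2 ratio of -0.56 that was not called. Ccna2, the cyclin of S phase and G2, was at 344 CPM in control against 111 CPM in RO-3306 (log2 -1.62, called lower), 272 CPM and 205 CPM in set B, and 44.7 CPM and 42.04 CPM in score-low cells. Pkmyt1, an inhibitory kinase of CDK1, was called lower at 72.6 CPM and 24 CPM, and Cdc25a, a phosphatase that activates CDKs, at 25.9 CPM and 1.46 CPM. Called higher were Cdc25b, the phosphatase that starts CDK1 activation, at 43.3 CPM and 114 CPM (log2 1.38, or 2.97 without control B4), and Ensa, an inhibitor of the phosphatase PP2A, at 51.1 CPM and 159 CPM (1.62, or 2.41 without control D8).

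Genes of the spindle and of chromosomes were mostly lower. Of 19 measured spindle motors and microtubule binders, 8 were called lower (42.1%, against 21.8% of all tested genes) and none higher, with a median of -1.15. Without control B4 the median was -0.30 over the same genes, near that of all tested genes, and -0.613 over the genes that then averaged 5 CPM. Kif11, the motor that pushes spindle poles apart, was at 0, 90.2 and 400 CPM in control cells and at 0, 0 and 412 CPM in RO-3306 cells, with a count in 8 of 9 control and 11 of 24 RO-3306 cells. In sum this was 212 CPM in control against 31.8 CPM in RO-3306 (log2 -2.70, or -4.43 without RO-3306 C9), and the score-low cells had 53.4 CPM and 69.1 CPM. Kif22, a chromosome-arm motor, was at 166 CPM and 56.2 CPM (-1.54, or -0.94 without control D8). Nusap1, which bundles spindle microtubules, had -1.15 by the sums and -0.82 by the mean over cells, and was not called.

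Of 14 chromosome structure genes, 6 were called lower (42.9%, against 21.8% of all tested genes) and none higher. Their median was -1.18, with a median mRNA of 4657 nt. Rad21, the cohesin subunit cut at anaphase, was at 23.03, 248 and 1384 CPM in control cells and at 0, 30.03 and 293 CPM in RO-3306 cells. Its sums were 303 CPM and 70.4 CPM (log2 -2.09, -1.57 in set B, -0.75 in score-low cells), and the RO-3306 cell was higher in 14.8% of pairs. Mki67, a coat of mitotic chromosomes and a marker of cycling cells, was at 187 CPM and 17.1 CPM (-3.38, or -2.61 without control D8), and Smc1a, a cohesin subunit, at 227 CPM and 35.6 CPM (-2.64, or -2.04 without control B6). Both were also lower in score-low cells, with ratios of -3.61 and -3.87.

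Genes on the cytokinesis list had a median of -1.38, or -0.797 over the same genes without control B4, and a median mRNA of 4582 nt. Of 9 measured, 4 were called lower (44.4%, against 21.8% of all tested genes) and none higher. Racgap1, part of the centralspindlin complex at the midzone, was at 27.5, 724 and 1816 CPM in control cells and 0.686, 273 and 565 CPM in RO-3306 cells. Most RO-3306 cells lay below most control cells (log2 -1.41, RO-3306 higher in 13.4% of pairs), while in score-low cells the sums were 198 CPM and 179 CPM. Its partner motor Kif23 was among the 10 lowest named genes (below), Cep55, which recruits the abscission machinery, was at 145 CPM and 55.2 CPM, and Ect2, the RhoA exchange factor of the furrow, at 126 CPM and 13.99 CPM (-3.08, between -3.90 without RO-3306 A5 and -2.50 without control B4, but 0.25 without set B).

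The chromosomal passenger complex had a median of -0.79 over 4 genes, or -0.95 by the mean over cells, and 2 were called lower (50%). Spindle checkpoint and kinetochore genes had medians of -0.20 and -0.37. Of the chromosomal passenger complex, Birc5 (survivin) was at 271, 749 and 1196 CPM in control cells and 372, 855 and 1247 CPM in RO-3306 cells, ranges that overlap almost fully, with 790 CPM and 847 CPM in sum. Its kinase Aurkb was at 218 CPM and 180 CPM, and the subunits Cdca8 (297 CPM and 120 CPM) and Incenp (67.7 CPM and 17.6 CPM) were called lower, Incenp at -1.89, or -1.11 without control D8. Among 8 spindle checkpoint genes, Bub1b and Ttk were called lower (25%, near the 21.8% of all tested genes). Bub1b, the checkpoint kinase BUBR1, was at 129 CPM and 33 CPM. Of 13 kinetochore genes, Nuf2, Knl1 and Hjurp were called lower (23.1%, also near the 21.8% of all tested genes) and 1 was called higher. Hjurp, the chaperone that loads the centromeric histone, was at 259 CPM and 72.4 CPM, and Nuf2, which grips microtubules, at 242 CPM and 104 CPM.

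Of 17 genes of the APC/C and separase, 8 were called lower (47.1%, against 21.8% of all tested genes) and none higher. Their median was -0.98, but 0.18 in set B and 0.04 in score-low cells. Fbxo5, the APC/C inhibitor EMI1, was at 198 CPM in control against 52.4 CPM in RO-3306. Cdc27, a core subunit, was at 152 CPM and 41.3 CPM; its ratio changed sign without set B.

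S phase genes had a median of -0.42 over 42 measured, with 12 called lower (28.6%, near the 21.8% of all tested genes) and 1, Pold1, higher. Tyms, which makes thymidylate, was at 81.9, 335 and 1179 CPM in control cells and at 0, 114 and 546 CPM in RO-3306 cells. Mcm6, a subunit of the replicative helicase, was at 13.7, 215 and 820 CPM against 0, 47.96 and 195 CPM. Rpa1, which coats single-stranded DNA, was at 0, 275 and 393 CPM against 0, 69.7 and 161 CPM. For these 3 genes the RO-3306 cell was higher in 18.98%, 14.8% and 22.2% of pairs, and their log2 ratios were -1.47, -1.85 and -1.88, against 0.17, -0.70 and 1.30 in score-low cells. Pcna, the sliding clamp of the polymerases, was at 190 CPM in both groups.

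Inhibitors of cyclin-dependent kinases went in opposite directions. Cdkn2c, which encodes p18-INK4C, an inhibitor of CDK4 and CDK6, was at 109, 173 and 308 CPM in control cells and at 0, 3.66 and 95.5 CPM in RO-3306 cells, so that no RO-3306 cell reached the lowest control cell. In sum it was at 190 CPM and 27.6 CPM (log2 -2.74), with -3.67 in set B and -1.72 in score-low cells. At equal depth, a count was found in 9 of 9 control and 12 of 23 RO-3306 cells. Cdkn1a, which encodes p21, the p53 target that inhibits CDK1 and CDK2, was at 0, 21.9 and 443 CPM in control cells and at 0, 215 and 1110 CPM in RO-3306 cells. Its sums were 64.9 CPM and 265 CPM (2.01, or 2.62 without control B8), and in score-low cells 88.0 CPM and 330 CPM. Cdkn1b, which encodes p27, was called lower at 11.98 CPM and 2.08 CPM, with a count in 3 control and 3 RO-3306 cells, and ranged from -2.72 without RO-3306 B12 to -0.83 without control B6. Cdkn2d and Cdkn3 were not called.

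Cdk6, a target of p18-INK4C, was at 20.7, 189 and 647 CPM in control cells and at 1.14, 38.2 and 223 CPM in RO-3306 cells. The RO-3306 cell was higher in 14.4% of pairs, and the log2 ratio was -2.18, -1.94 in set B and -1.61 in score-low cells. Rb1, the brake on E2F, had no count in control and 11.3 CPM in RO-3306, where 11 of 24 cells had a count. By counting error alone, a count of 0 over the 9 control cells allows 3 counts (0.116 CPM), and this is at least 97.7-fold above that limit. The limit leaves out the spread between cells, since 0 of 9 cells still allows a count in 33.3% of cells. In score-low cells Rb1 was at 8.73 CPM in control against 14.2 CPM in RO-3306 (log2 0.64). Over the 14 measured genes of G1 cyclins, CDKs and RB-E2F, 3 were called higher (Rb1, E2f3 and E2f6) and 4 lower (Cdk6, Ccne1, E2f5 and E2f8). These are 21.4% and 28.6%, against 15.3% and 21.8% of all tested genes.

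Targets of p53, the factor that stops or kills damaged cells, were higher in RO-3306. Of 22 measured, 10 were called higher (45.5%, against 15.3% of all tested genes) and none lower. The median was 1.10, against 1.47 in set B and 1.23 in score-low cells. Bax, the pore-forming killer of the BCL2 family, was at 20.9, 176 and 404 CPM in control cells and 235, 484 and 854 CPM in RO-3306 cells. Its lowest RO-3306 cell stood above the control median, and the RO-3306 cell was higher in 93.5% of pairs (180 CPM and 515 CPM in sum, log2 1.51). Mdm2, the ligase that removes p53, was at 0, 0.238 and 202 CPM against 0, 173 and 818 CPM (log2 2.01, or 3.37 without control B4). Trp53inp1, a cofactor of p53, had 2.58, or 6.02 without control B4, and Gadd45a, which restrains CDK1, 1.39, or 2.37 without control A1. Zmat3, an RNA-binding p53 target, was at 0.271 CPM and 31.8 CPM (4.69, or 3.99 without RO-3306 A5). In score-low cells Zmat3 was at 31.1 CPM in control against 38.9 CPM in RO-3306 (0.31), so its near absence did not extend to score-low control cells. Ccng1 was also higher, at 316 CPM and 646 CPM (1.03), but was not called, with 0.60 by the mean over cells. Not every target followed: Aen was at 177 CPM and 76.8 CPM (-1.19), without a call.

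Glutathione S-transferases, enzymes that join glutathione to electrophiles, were higher in RO-3306. All 18 measured members had a ratio above 0, and 9 were called higher (50%, against 15.3% of all tested genes) and none lower. The median was 1.22 (0.77 in set B, 1.21 in score-low cells). Their summed level was 1225, 2638 and 2938 CPM in control cells and 3342, 5731 and 9289 CPM in RO-3306 cells, with no overlap. Their median mRNA was short, at 1101 nt, a length at which the median of all tested genes was also above 0.

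Gsta1, at chr9:78137951-78149965 (GRCm39, plus strand), was at 0 in all 9 control cells and at 7.35, 118 and 1362 CPM in RO-3306 cells. Its neighbour Gm3776, at chr9:78164411-78176448, was at 0 and at 5.84, 132 and 742 CPM, and Gsta2, at chr9:78238300-78254474 on the minus strand, at 0 and at 1.76, 50.2 and 604 CPM. Over the RO-3306 cells together this was 362 CPM, 236 CPM and 101 CPM. By counting error alone, these are at least 3125-fold, 2036-fold and 868-fold above the control limit of 0.116 CPM. Their counts were fractional in 87.5% of cells, that is, they rested in part on reads placed at several sites, and how such reads were shared out bears on each single value. Their sum was 699 CPM in RO-3306 (exact Poisson 95% interval 692 to 706), at least 6029-fold above the same limit on counts. Score-low control cells were not empty, with 4.45 CPM of Gsta1, 2.15 CPM of Gm3776 and 0.467 CPM of Gsta2, against 393 CPM, 228 CPM and 111 CPM in score-low RO-3306 cells.

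Gsta4, which acts on the lipid peroxidation product 4-hydroxynonenal, was at 0, 173 and 534 CPM in control cells and 137, 951 and 2626 CPM in RO-3306 cells. The RO-3306 cell was higher in 96.8% of pairs, and the log2 ratio was 1.80, against 1.27 in set B and 1.46 in score-low cells. Gsto2, of the omega class, was at 3.85 CPM and 62.3 CPM (3.71, or 5.95 without control B4).

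The list of the aryl hydrocarbon receptor, a receptor for planar chemicals, holds its partner Arnt beside its targets and did not move as a group. Of 5 measured genes, Aldh3a1, Nqo1 and Tiparp were called higher and Cyp1b1 and Arnt lower (60% and 40%, against 15.3% and 21.8% of all tested genes). Aldh3a1, an aldehyde dehydrogenase, was at 0, 0 and 295 CPM in control cells and 0, 610 and 1790 CPM in RO-3306 cells, where all but 1 had a count (log2 3.28, 3.62 in set B and 3.29 in score-low cells). Nqo1, a quinone reductase that NRF2 also controls, was at 0, 0 and 63.6 CPM against 0, 113 and 1169 CPM (3.44, or 4.59 without control B6). Cyp1b1, the cytochrome P450 of the battery, was at 0, 409 and 1309 CPM in control cells and at 0, 96.8 and 355 CPM in RO-3306 cells (-2.32, -2.19 in set B, -0.88 in score-low cells). Tiparp, which feeds back on the receptor, was at 5.04 CPM and 16.04 CPM, with a count in 1 control cell and 9 RO-3306 cells, and its ratio of 1.495 ranged from 0.62 without RO-3306 B7 to 4.09 without control B4, and was -0.38 where each group was divided at its own median. Arnt, the receptor's partner, was at 35.9 CPM and 5.50 CPM (-2.51, or -3.75 without RO-3306 A9).

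Both subunits of ferritin, the iron-storing shell, were among the genes with no overlap. Ftl1, the light chain, was at 2793, 4344 and 8614 CPM in control cells and 10018, 17295 and 26675 CPM in RO-3306 cells. Fth1, the heavy chain, was at 1915, 2946 and 4198 CPM against 5106, 11180 and 20807 CPM. Their log2 ratios were 2.04 and 1.98, with 2.20 and 2.14 in set B and 2.45 and 1.79 in score-low cells. Prr13 was at 212, 624 and 1462 CPM in control cells and 2216, 3674 and 5823 CPM in RO-3306 cells (2.40), with counts fractional in 72.7% of cells.

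On the wider list of NRF2, glutathione and thioredoxin genes, the median was 0.49 (0.64 in set B and 0.71 in score-low cells). None of 20 was called lower and 6 were called higher (30%, against 15.3% of all tested genes), both ferritin chains among them. The other 4 were Hmox1, the heme oxygenase, Gsr, which reduces glutathione, Srxn1, which repairs peroxiredoxins, and Taldo1, of the pentose phosphate pathway. Taldo1 was at 94.2, 223 and 275 CPM in control cells and 107, 498 and 781 CPM in RO-3306 cells, higher in RO-3306 in 88.9% of pairs (log2 1.18). Hmox1 was at 24.4 CPM and 115 CPM (2.19, or 3.75 without control B4), Gsr at 40.5 CPM and 173 CPM (2.07, or 3.12 without control B4) and Srxn1 at 90.5 CPM and 286 CPM (1.65, with 0.32 in set B). The cystine carrier Slc7a11 (32.3 CPM and 39.7 CPM) and Gclc, which limits glutathione synthesis (85.9 CPM and 74.4 CPM), were not called.

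Lysosomal genes were higher as well, with 12 of 27 measured called higher (44.4%, against 15.3% of all tested genes) and none lower. Their median was 1.08 (0.70 in set B, 1.503 in score-low cells). Per cell they summed to 2406, 4840 and 9279 CPM in control and 3230, 11350 and 16776 CPM in RO-3306, which was higher in 91.2% of pairs. Ctsd, the aspartic protease cathepsin D, was at 0, 144 and 999 CPM in control cells and 215, 764 and 1468 CPM in RO-3306 cells (log2 1.82). Ctsl, a cysteine cathepsin, was at 144, 588 and 1071 CPM against 0, 1584 and 2599 CPM (1.24). The membrane glycoproteins Lamp1 and Lamp2 stood at 272 CPM and 745 CPM, and at 196 CPM and 617 CPM. The peptidase Tpp1 was at 56.1 CPM and 222 CPM (1.96, or 3.61 without control B4).

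Cd68, a lysosomal glycoprotein much used as a macrophage marker, had the second largest log2 ratio among the named genes, an order that rests on the 1 CPM added to each value. It lies at chr11:69555039-69556996. In control it had 5 counts, all in cell B12, and was at 0 in the other 8; in RO-3306 it was at 0, 228 and 860 CPM, with a count in 23 of 24 cells. In sum that was 0.193 CPM (Poisson interval 0.0627 to 0.451) and 328 CPM, a log2 ratio of 8.11, with 8.50 in set B and 8.25 in score-low cells, whose control cells had none. Of 15 macrophage markers, 8 were at 0 in every score-high cell (Csf1r, Fcgr3, Tyrobp, Aif1, Marco, C1qa, C1qb and C1qc), and only Cd14 and Lyz2 had a mean of at least 5 CPM. Cd14 was at 40.9 CPM in control against 42.4 CPM in RO-3306, and Lyz2 at 4.46 CPM and 14.4 CPM, with a count in 1 control cell and 7 RO-3306 cells; the ratio of Lyz2 turned below 0 where each group was divided at its own median. The summed markers ran from 0 to 173 CPM per control cell and from 0 to 436 CPM per RO-3306 cell.

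**Figure D3:**
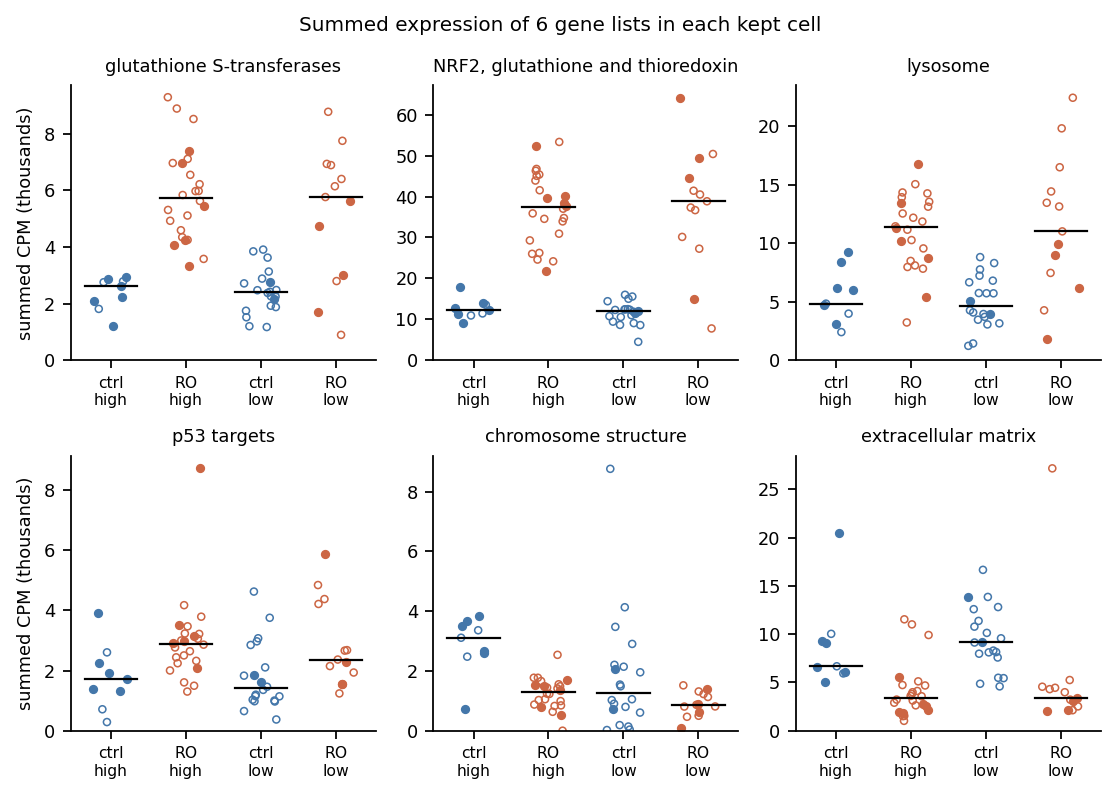
Summed CPM of 6 gene lists (vertical axes, in units of 1000 CPM) in each kept cell, for score-high and score-low cells of control (blue) and RO-3306 (orange); filled points are set B and lines are medians. Summed glutathione S-transferases do not overlap among score-high cells, at 1225 to 2938 against 3342 to 9289 CPM. The NRF2 sum does not overlap either, but most of it is ferritin, whose chains Ftl1 and Fth1 each lack overlap by themselves. Of the control list total of 11913 CPM, Ftl1 gave 4108 and Fth1 2754. Of the RO-3306 total of 35986 CPM, they gave 16951 and 10837. Whether the other NRF2 genes overlap as a sum was not tested.

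The largest ratios overall were named by a rule: at least 2-fold, a mean of at least 50 CPM, detection in no fewer than 50% of cells in whichever group was higher, and the same direction in at least 80% of pairs. This took in 166 genes higher and 77 lower. The 10 highest were Gsta1, Cd68, Gm3776, Dpp7, Gsta2, Lncenc1, Capn1, Fuom, Gstk1 and Hagh. Dpp7, a lysosomal peptidase at chr2:25242302-25246403, was at 0 in every control cell and at 0, 99.6 and 378 CPM in RO-3306 cells. In sum Dpp7 was at 146 CPM, at least 1259-fold above the control limit, which covers counting error only. Its score-low control cells had 32.5 CPM, so its absence did not extend to them.

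Lncenc1, a long noncoding RNA, was at 0, 0.477 and 4.13 CPM in control cells and 0, 54.6 and 442 CPM in RO-3306 cells (log2 5.48, or 6.21 without control B4). Capn1, a calcium-dependent protease, was at 3.47 CPM and 143 CPM (5.01), and Fuom, a fucose mutarotase, at 2.78 CPM and 119 CPM (4.99). Gstk1, the mitochondrial and peroxisomal glutathione transferase, and Hagh, the glyoxalase that frees glutathione from lactoylglutathione, each had a count in 1 control cell and 21 RO-3306 cells. Gstk1 was at 2.49 CPM and 100.2 CPM (4.86, or 6.66 without control B2), and Hagh at 5.52 CPM and 110 CPM (4.09, or 6.79 without control B4). In score-low cells the ratios of Capn1, Fuom, Gstk1 and Hagh were 1.28, 1.10, 2.03 and 0.57, with control sums of 19.2 to 61.1 CPM.

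The 10 lowest were Ro60, Srrt, Cdon, Ets1, Nisch, Dcbld2, Tln1, Hnrnpa0, Kif23 and Eif4g1. Ro60, which binds misfolded small RNAs, was at 0, 82.2 and 582 CPM in control cells and had a count in 2 of 24 RO-3306 cells (log2 -5.56, or -7.18 without RO-3306 C1). Srrt, a partner of the cap-binding complex, was at 0, 103 and 540 CPM against 0, 0 and 48.4 CPM (-5.03). In score-low cells both had the other sign, 2.35 and 0.68. Ets1, a transcription factor, was at 0, 161 and 627 CPM against 0, 0 and 123.3 CPM (-3.34, -2.63 in set B, -1.85 in score-low cells).

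Tln1 encodes talin, which ties integrins to actin. It was at 0, 83.4 and 337 CPM in control cells and 0, 0.120 and 103 CPM in RO-3306 cells (-3.00, -6.85 in set B, -2.81 in score-low cells). Dcbld2, a membrane receptor, and Nisch, which binds integrin alpha-5, had -3.04 and -3.09, and Hnrnpa0, an RNA-binding protein, -2.95. Cdon, a Hedgehog coreceptor, had -4.12, or -5.65 without RO-3306 B7. Kif23 was at 117 CPM and 16.3 CPM (-2.78, or -4.49 without RO-3306 B9), and Eif4g1, the scaffold of cap-dependent initiation, at 116 CPM and 16.2 CPM (-2.76, or -3.41 without RO-3306 D9). Apart from Ro60, which has no length entry, these mRNAs run from 2678 to 8393 nt.

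**Figure D4:**
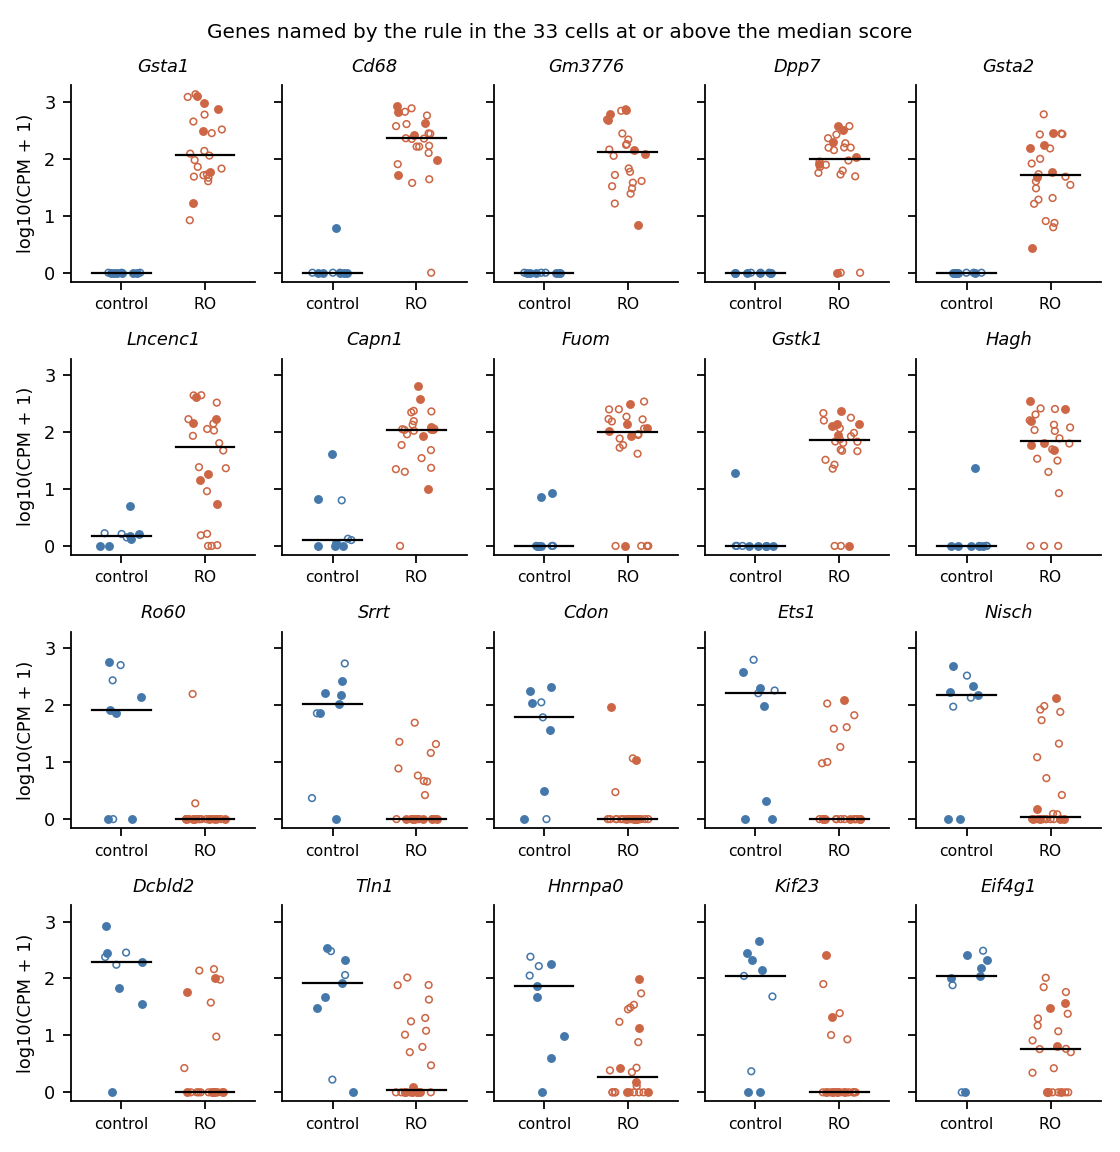
Level of the 10 highest and 10 lowest named genes (vertical axis, log10 of CPM + 1) in score-high control (blue) and RO-3306 (orange) cells; filled points are set B and lines are medians. Gsta1, Gm3776, Gsta2 and Dpp7 lie at 0 in all 9 control cells, while among the lowest genes the median RO-3306 cell lies at 4.77 CPM or below.

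Extracellular matrix genes were lower, with 13 of 24 measured called lower (54.2%, against 21.8% of all tested genes). The list median was -1.53 (-2.52 in set B, -1.46 in score-low cells). Their median mRNA was long, at 5068 nt. Per cell they summed to 5083, 6672 and 20476 CPM in control, the highest being cell B4, and to 1020, 3393 and 11537 CPM in RO-3306, which was higher in 11.6% of pairs. Col1a1, a chain of fibrillar collagen I, was at 359, 601 and 1483 CPM in control cells and 4.73, 94.1 and 1067 CPM in RO-3306 cells (log2 -2.72). Col3a1, the chain of collagen III, was at 191, 565 and 780 CPM against 0, 29.5 and 449 CPM (-2.70), and 6 of 24 RO-3306 cells had none.

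Sparc, a collagen-binding glycoprotein, was at 1660, 4030 and 5179 CPM in control cells and 384, 1452 and 4383 CPM in RO-3306 cells (-1.47). Serpinh1, the collagen chaperone HSP47, was at 118, 246 and 580 CPM against 0, 104 and 242 CPM (-1.35), and Lox, which crosslinks collagen, at 614 CPM and 150 CPM (-2.03). For these 5 genes the RO-3306 cell was higher in between 4.63% and 21.3% of pairs, and score-low cells gave -2.22, -2.75, -1.58, -1.14 and -1.89. Fibronectin and thrombospondin rested more on 1 cell: Fn1 had -2.89, or -1.04 without control B4, and Thbs1 -3.86, or -1.15 without control B4 and 3.93 without set B. Postn (periostin) was the 1 member called higher, at 2.51 CPM and 31.4 CPM, with a count in 1 control cell and 5 RO-3306 cells. Its ratio of 3.21 ranged from 0.86 without RO-3306 C9 to 5.02 without control B12, and was -2.19 in set B.

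Of 16 actin and contractile genes, 6 were called lower (37.5%, against 21.8% of all tested genes) and none higher, with a median of -0.83. Actn4, an actin crosslinker, was at 0, 183 and 401 CPM in control cells and 0, 45 and 248 CPM in RO-3306 cells (-1.73), and Myh9, the heavy chain of nonmuscle myosin II, at 0.544, 146 and 232 CPM against 0, 29.8 and 144 CPM (-1.35). H1f0, a linker histone of nondividing cells, was at 248 CPM and 78.7 CPM (-1.65).

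Stress genes parted from each other. Ddit3, which encodes the stress factor CHOP, was at 0, 34.1 and 195 CPM in control cells and 97.7, 471 and 1664 CPM in RO-3306 cells. The RO-3306 cell was higher in 96.8% of pairs, and the log2 ratio was 3.05 (3.64 without control A1), with 3.97 in set B and 3.37 in score-low cells. Atf4, its upstream activator, was at 643, 1109 and 1849 CPM against 471, 1006 and 2405 CPM (-0.18), ranges that overlap. Atf3 had no count in control and 22.5 CPM in RO-3306, from 9 of 24 cells. This is at least 194-fold above the control limit, which covers counting error and not the spread between cells. Of 20 measured genes of the integrated stress response, Ddit3 and Atf3 were called higher and Slc7a5 and Aldh1l2 lower. This was 10% each way, against 15.3% and 21.8% of all tested genes, and the median was -0.16.

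Of 21 genes of endoplasmic reticulum chaperones and the unfolded protein response, 6 were called lower (28.6%, near the 21.8% of all tested genes) and 1, Ern1, higher (median -0.66). Pdia6, a disulfide isomerase, was at 352, 554 and 1426 CPM in control cells and 0, 196 and 848 CPM in RO-3306 cells (-1.48, -2.92 in set B, -0.20 in score-low cells). Hspa5, the chaperone BiP, was at 121 CPM and 41.2 CPM (-1.53, or -0.54 without control B4); 81.0% of its span lies under other genes, where reads were not counted. Hsp90b1 had -1.71, or -0.89 without control B4 and 0.041 without set B.

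Among secreted factors, Cxcl12, a chemokine of stromal cells, was at 888, 3058 and 3907 CPM in control cells and 233, 879 and 4440 CPM in RO-3306 cells (-1.23). Ccl2, which draws monocytes, was at 0, 112 and 4097 CPM against 101, 1702 and 7668 CPM (1.18, or 2.39 without control B4). All 12 measured genes of cholesterol synthesis and uptake had a ratio below 0 (median -0.98), and 4 were called lower (33.3%, against 21.8% of all tested genes).

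Some lists gave few calls. Among 77 measured cytosolic ribosomal proteins none was called in either direction (median -0.09), and among 31 proteasome genes none was (median -0.24), against 15.3% and 21.8% of all tested genes. Of 57 nuclear-coded oxidative phosphorylation genes, Ndufs1 was called lower and none higher, 46 had a ratio above 0, the median was 0.37 and the RO-3306 cell had the higher sum in 87.5% of pairs. Their median mRNA was 971 nt, again in the range where all tested genes had a median above 0. Of 13 mitochondrially encoded genes 12 had a ratio above 0 (median 0.64), and ATP8 was called higher.

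**Figure D5:**
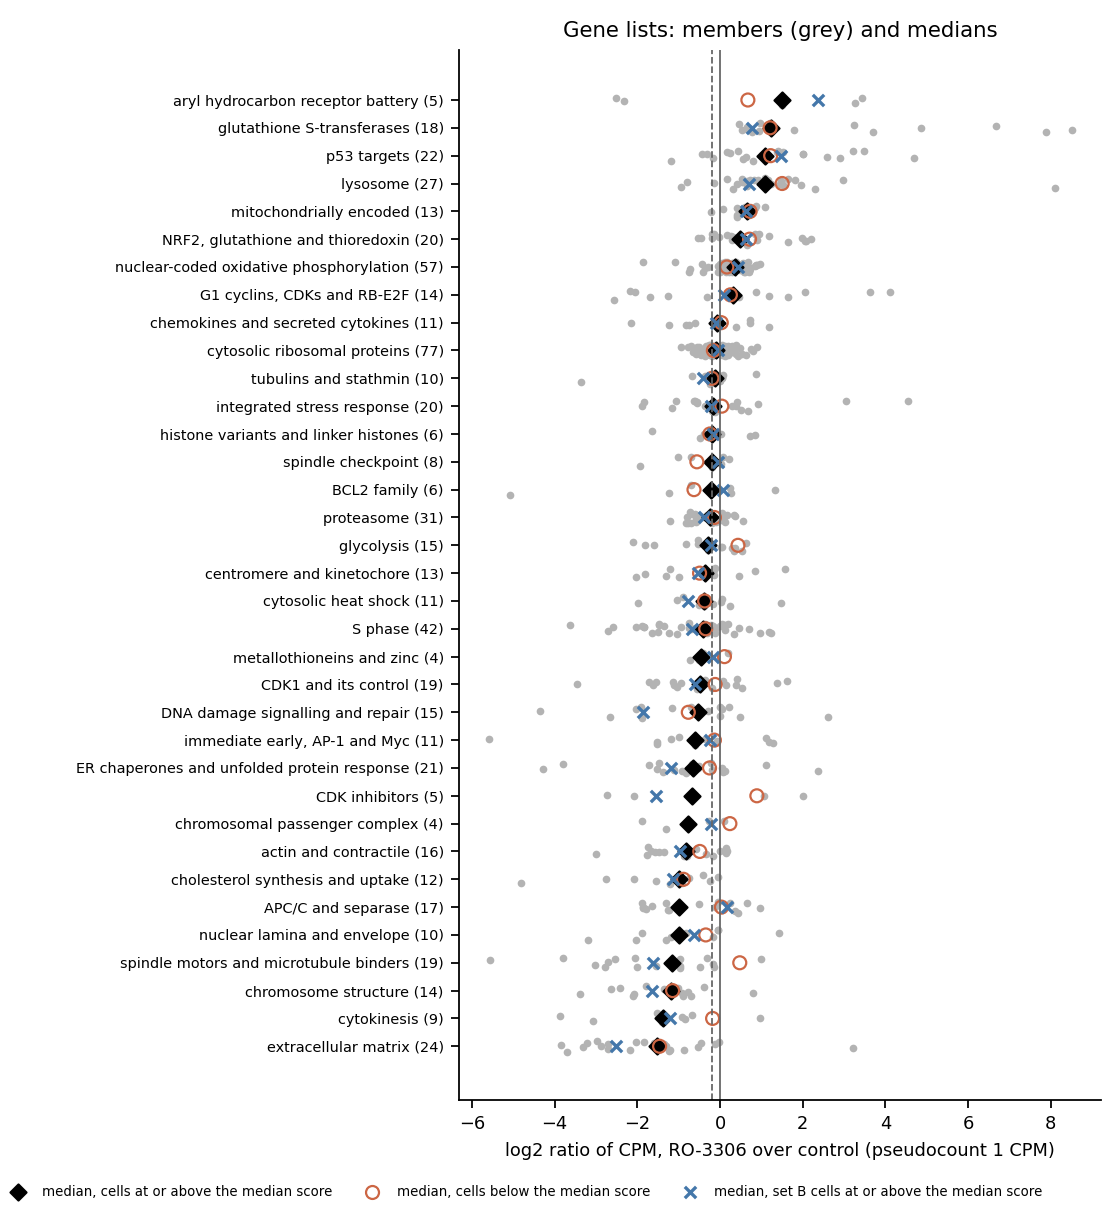
Log2 ratio of RO-3306 over control CPM (horizontal axis) for the measured members of each list (grey points, number in brackets) in score-high cells, with the list median there (black), in set B alone (blue cross) and in score-low cells (orange ring); the dashed line is the median of -0.20 over all tested genes. Lists of glutathione S-transferases, p53 targets and the lysosome keep medians above 0 in all 3 sets of cells, and those of the matrix and of chromosome structure below 0, while spindle motors go from -1.15 to 0.48 in score-low cells.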

How the data were processed

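The authors deposited 1 file of expected counts per library, made with featureCounts 2.0.3 from GRCm39 and its RefSeq genes, per the file headers. Counting took in each gene from end to end, with its introns, and reads with several placements were shared out as fractions; no strand option is recorded and, by the tool's default, reads over more than 1 gene span are left out. The submitters' processing notes name FastQC and STAR, with versions not given in the sources used here. Without molecular identifiers, PCR copies are part of the counts, and intervals cover counting error only.

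All 96 files list the same 40202 genes, and 0 columns were left without a sample. CPM values, scores, group sums and ratios were computed with Python 3.11.15, numpy 2.4.6, pandas 2.3.3 and scipy 1.17.1. Fractional counts (over 1e-06 from a whole number) were rounded for intervals, thinning and scaling factors. TMM (edgeR 4.0.16) and DESeq2 1.42.0 (R 4.3.3) gave scaling factors only, and no gene was tested. In pair percents a tie counts as 50% of a pair. The 10 highest and 10 lowest genes were named by the rule stated with them; within lists, the members with the largest ratios and those that define the pathway were named, and the genes without overlap were named after their values were seen. Some list members count in the list values but are not reported here by name. The 35 gene lists and 8 marker lists, like the cells themselves, were chosen with earlier results of these data known. Doublets were not searched for, as cells were dispensed singly. The measure of genes per cell used cells thinned to 639000 counts (percentile 10 of the kept totals, rounded down). Lengths are of the longest GENCODE M21 transcript of a symbol, and promoters are from RefSeq (GRCm38.p6). The scripts' fold calls were tested on simulated data.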

Additional observations from a re-analysis of the deposited data

Results flagged for a closer look

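The 9 score-high control cells were examined on 61 measures: score, depth, genes per cell, mitochondrial share, list sums and named genes. A measure was flagged where a cell's gap to its nearest neighbour was large against the whole range, and 10 were. Chance alone marks about 1 measure in 20. This share is no yardstick for Cd68, Gstk1 and Hagh, which had counts in 1 control cell and so a gap equal to the range. The same holds for other genes named for low control levels. Control B4, the deepest library, stood apart in the summed extracellular matrix at 20476 CPM (next cell 10034 CPM, median 6672 CPM), in Lncenc1 at 4.13 CPM (next 0.671 CPM) and in Hagh at 22.1 CPM (all others at 0). Control B8 was low in summed chromosome structure genes, at 734 CPM (next 2478 CPM, median 3112 CPM), and high in Dcbld2, at 822 CPM (next 284 CPM). Control A1 was high in summed cholesterol genes, at 2074 CPM (next 799.8 CPM). Control B12 held the only counts of Cd68 in control, at 5.20 CPM, and was high in Capn1 at 40.6 CPM (next 5.55 CPM). Gstk1 was at 18.1 CPM in control B2 and at 0 in the other 8, and Srrt was at 540 CPM in control D8 (next 265 CPM). The 24 RO-3306 cells were too many for this measure.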

How the results depend on the processing

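No paired analysis was possible because the result comes from no test. List medians here are over the genes that pass the 5 CPM minimum in each setting. Of 24 alternative settings, that of at least 5 counts per detected gene gave no list medians. Over the others, with the lowest and highest list median without 1 cell, 845 of 900 values kept their sign. The setting without cells above 20% mitochondrial counts held the same 9 control and 24 RO-3306 cells as the main comparison. Genes at least 2-fold higher numbered 302 and genes lower 551 with a 50 CPM minimum, and 2674 were higher with no minimum. Without set B, which leaves 3 control cells, 2868 were higher; leaving out 1 cell gave 1394 to 1791 higher and 1896 to 2074 lower, the extremes of 1791 and 1896 without control B4. The median log2 ratio over tested genes was 0.052 with DESeq2 factors, 0.032 with TMM, 0.011 with no minimum and 0.19 without set B, and -0.22 to -0.09 without 1 cell. The share of control cells that were score-high was 75% in set B and 14.3% without it, against 60% and 66.7% in RO-3306. Genes per cell at equal depth ranged from 4484 to 4929 in control and 5911 to 5972 in RO-3306 without 1 cell, and the gap narrowed to 5759 against 6077 with a mean log2 score and to 5516.5 against 5851 in the 22 cells of highest score. The aryl hydrocarbon receptor list (median 1.495) had -1.10 with each group's own median, -0.52 without control A1, -0.23 with a mean log2 score, -0.32 in the 22 cells of highest score, -0.47 without set A and -0.090 without set C, and 3.22 at the highest without 1 cell (control B4). Without set B, Cdc27 had 0.12, Ect2 0.25, Hsp90b1 0.041 and Thbs1 3.93. Lyz2 had -1.38 with each group's own median and -1.22 with a mean log2 score, Tiparp -0.38 with the own median, and Postn -2.19 in set B. The causes were not tested. With 9 control cells, 1 of which gave 24.95% of the counts, differences in genes seen in few cells are the least certain.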

Other observations

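Lists not described above gave these values in score-high cells, where 15.3% of all tested genes were called higher and 21.8% lower. Nuclear lamina and envelope genes had a median log2 ratio of -1.001 over 10 measured, with Lmnb1, Lbr, Lemd3 and Sun2 called lower and Emd higher. DNA damage signalling and repair genes had -0.53 over 15 (median mRNA 5512 nt; -0.083 over the same genes without control B4), with Atr, Fancd2, Trp53bp1 and Nbn lower and Exo1 higher. Immediate early, AP-1 and Myc genes had -0.61 over 11, with Junb, Egr1, Ier2 and Klf6 lower and Jund higher. Some of these calls rest on few cells. At equal depth Egr1 had a count in 1 of 9 control and 0 of 23 RO-3306 cells, and Atr in 2 and 0. Of 6 measured BCL2 family genes Bid was called higher and Bcl2 and Bok lower. Of 11 cytosolic heat shock genes Dnajb1 was called higher and Bag3 lower, and of 15 glycolysis genes Hk1 and Pfkm were called lower. Of 10 tubulin and stathmin genes Map4 was called lower, and none of 4 metallothionein and zinc genes was called. Of the marker lists, alveolar type II had 2 of 10 genes measured, with Abca3 lower, and alveolar type I had 4 of 7 with none called. Col1a1, Col3a1, Fn1 and Cdh2 of the mesenchymal list were called lower, and none of 7 measured housekeeping genes was called.

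Score-high RO-3306 cells had higher correlations with each other than score-high control cells did. Control cells also had fewer genes with a count at equal depth (median 4584 against 5969), and the part of this in the correlations was not tested. At equal depth the median correlation of log values between 2 cells was 0.564 over the 253 RO-3306 pairs, 0.434 over the 36 control pairs and 0.464 over the 207 pairs of 1 cell of each group; pairs share their cells, and the medians are a description.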
